A study of Oryza sativa with 12 samples.

Results

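Gene expression was compared between heat-treated and untreated seedlings of a rice line labelled as a knockout of GRP3 and GRP162. The comparison takes 6 of the 12 libraries of the study. They were chosen by their titles, which name the double mutant and either heat or no treatment. The groups are dm_45C, the double mutant at 45 °C, and dm_29C, the same line kept at 29 °C, with 3 libraries each. The other 6 libraries, WT_45C and WT_29C with 3 each, come from the wild type cultivar ZH11 under the same 2 conditions and serve for comparison with the line. They also enter the filter on low values and the common estimate of spread behind each test. All plants grew in Kimura B solution at 29 °C, 65% humidity and 13 h of light a day, and seedlings 8 days old were used for the heat. The labels give the length of the heat once as 18 h and once as 42 h. Poly(A) RNA was taken from whole plants. The genotype label names GRP162 in replicate 1, GRP163 in replicate 2 and GRP164 in replicate 3 of both groups, while the titles name a single double mutant, and how many independent alleles or lines it holds is not stated. Nothing says whether replicates were separate cultures, so p-values reflect only how these libraries spread.

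GRP3 and GRP162 belong to the glycine-rich RNA-binding proteins, small plant proteins with an RNA recognition motif that bind transcripts and influence their splicing, stability and translation. In plants above their usual temperature, heat stress transcription factors switch on chaperones, which hold or refold unfolding proteins. Small heat shock proteins bind unfolding proteins without using ATP, and HSP70, HSP90 and HSP101 machines refold or disaggregate them with ATP. Photosynthetic carbon fixation is among the processes of a rice leaf most sensitive to heat.

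Levels are in FPKM, fragment counts scaled for locus length and for the size of the library, so that different genes may be compared. Pearson correlations of log2(FPKM + 1) across loci, which are not independent, ran from 0.932 to 0.943 within dm_45C, from 0.955 to 0.962 within dm_29C and from 0.786 to 0.876 between both groups. The depth behind the values is unknown. An entry at 0 means only that the locus is listed at 0, since genes that every dividing cell uses, such as MCM3 to MCM7, are listed at 0.34 FPKM or less as well. The tissue is labelled as whole plant, yet of 6 root markers Lsi2, TOM1 and NRT2.1 were listed at 0 in all 6 libraries, and YSL15 and IRT1 reached at most 0.02 and 0.83 FPKM. Lsi1 was the only measurable root marker. In such bulk samples fewer cells of a type and less RNA per cell cannot be told apart.

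Transcripts of both genes named as knocked out were measured in all 6 libraries, and GRP3 rose in heat. GRP3 (LOC_Os03g46770) reached 17604, 10888 and 14023 FPKM in dm_45C, against 4340.1, 1086 and 1355 FPKM in dm_29C. Every dm_45C library lay above every dm_29C library, and the difference passed (log2 fold change 2.90 ± 0.52, limma adjusted p = 0.00139, SE, n = 3 each). Without both libraries numbered 1 the rise was 3.35 (limma adjusted p = 0.00121), and in the wild type it was 1.72, where GRP3 stood at 16274, 14427 and 16321 FPKM in WT_45C and 5066, 3879 and 5488 FPKM in WT_29C. Replicates 2 and 3 of dm_45C and of dm_29C lay below all wild type libraries of their temperature, and replicate 1 did not lie below all of them. GRP162 (LOC_Os12g43600) measured 12466, 746 and 699 FPKM in dm_45C, against 3288, 218 and 265 FPKM in dm_29C. Replicate 1 was the highest in both groups, and dm_29C replicate 1 exceeded dm_45C replicates 2 and 3, so that the groups overlapped and the difference did not pass (log2 fold change 1.70 ± 1.09, limma adjusted p = 0.256). Within each replicate number the dm_45C library lay above the dm_29C library. The fit held no pairing by number, so the spread between numbers entered its error. Without both replicate 1 libraries the difference passed at a similar size (log2 fold change 1.58, limma adjusted p = 0.0139). In the wild type GRP162 stood at 2368, 1605 and 3719.8 FPKM in WT_45C and 1121, 1002 and 1033 FPKM in WT_29C, so replicate 1 of dm_45C and of dm_29C went against the genotype label for this gene, while replicates 2 and 3 lay below the wild type. The groups are therefore called the libraries labelled double mutant. Counts of called loci, in all and per list, are given with and without both replicate 1 libraries. Totals over the lists, the share without overlap and the calls shared with the wild type are given only with all libraries. A transcript level does not by itself show whether a knockout allele makes protein.

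**Figure D1:**
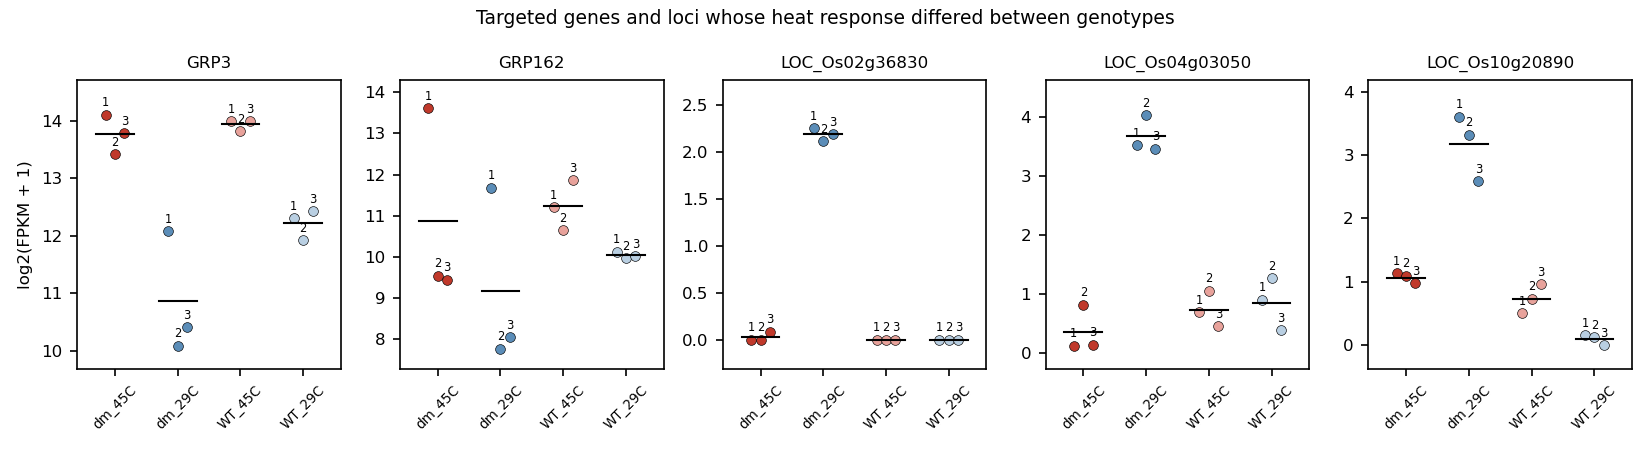
Level of each library as log2(FPKM + 1) for GRP3, GRP162 and 3 further loci, by group, with replicate numbers over the points and a bar at the mean. The 3 loci passed the test of a difference between genotypes, and they are shown as a description only. GRP162 is highest in replicate 1 of dm_45C and dm_29C, and the 3 loci are high in dm_29C and low in the other groups.

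Heat changed the level of a large share of the transcriptome. Of 20305 loci tested, 3102 (15.3%) were higher in dm_45C and 3328 (16.4%) lower at a Benjamini-Hochberg adjusted p under 0.05 in limma, the threshold used throughout and called passing. Without both replicate 1 libraries 2137 (10.5%) were higher and 1700 (8.37%) lower, of which 1973 and 1663 were also called in the full comparison. With 2 libraries in place of 3 in each group this fit has fewer values to work with. Among the called loci 1799 rose and 2022 fell by more than 1 on the log2 scale, and 130 rose and 107 fell by more than 3. The median log2 fold change over all tested loci was -0.01, and groups did not overlap at 47.6% of loci. Of the genes placed in 38 lists by pathway, 422 were tested, of which 125 rose and 78 fell. Genes named by rule in each list were taken from those passing without overlap, so their separation is no separate finding. Other genes were chosen after their values were seen.

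**Figure D2:**
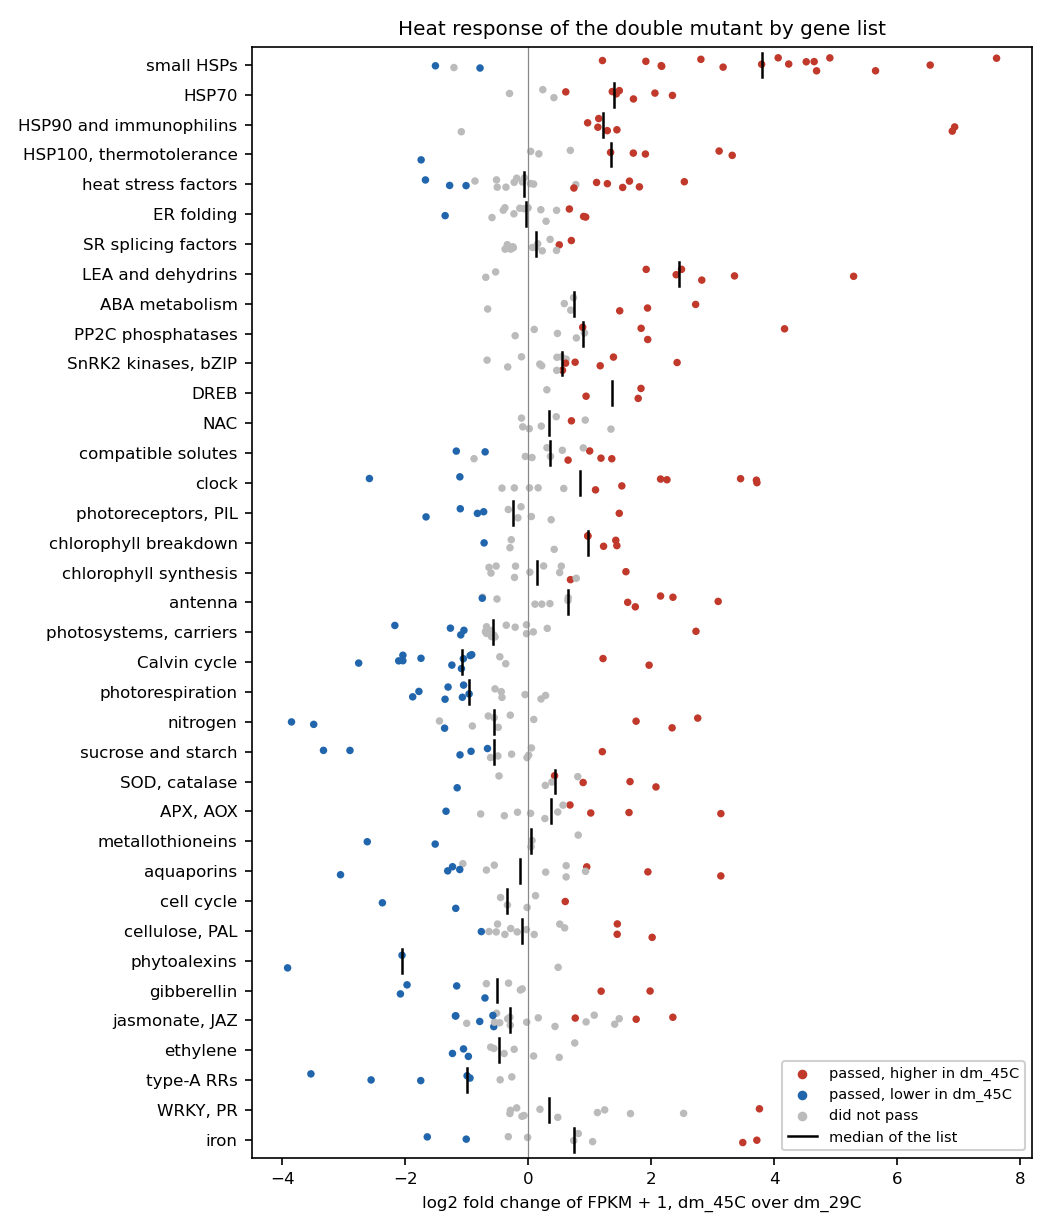
Log2 fold change of FPKM + 1 in dm_45C over dm_29C for each tested member of 37 gene lists, coloured by whether it passed, with a bar at the median of the list. Small heat shock proteins have a median of 3.80, Calvin cycle genes one of -1.07, and all tested loci one of -0.01.

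Small heat shock proteins held the highest list median. Of 19 tested members 16 rose and 2 fell, with a median log2 fold change of 3.80, where 15.3% of all tested loci rose and 16.4% fell. Of the 2 that fell, LOC_Os01g04350 is of unsure membership of the family. Without both replicate 1 libraries 15 rose and 1 fell. Their summed level was 2711, 3207 and 4945 FPKM in dm_45C and 319, 378 and 384 FPKM in dm_29C. HSP18.0 (LOC_Os01g08860), a cytosolic member, had 661, 365 and 841 FPKM in dm_45C, against 16.7, 23.4 and 26.3 FPKM in dm_29C. The lowest heat library was replicate 2, still far above all 3 controls (log2 fold change 4.69 ± 0.30, limma adjusted p = 2.44e-06). HSP17.9A (LOC_Os03g15960), another cytosolic member, measured 449, 431 and 608 FPKM in dm_45C, against 13.8, 29.7 and 37.7 FPKM in dm_29C, again without overlap (log2 fold change 4.24 ± 0.41, limma adjusted p = 2.72e-05). HSP26.7 (LOC_Os03g14180), the form of the plastid, had the steepest rise of the list. It stood at 233, 248 and 905 FPKM in dm_45C, against 0.8, 0.72 and 1.23 FPKM in dm_29C, and dm_45C replicate 3 held several times the level of the other heat libraries (log2 fold change 7.62 ± 0.61, limma adjusted p = 9.34e-06). HSP23.2 (LOC_Os04g36750), an ER form, measured 14.9, 44.3 and 35.8 FPKM in dm_45C and was close to 0 in dm_29C, at 0.06, 0 and 0.57 FPKM (log2 fold change 4.65, limma adjusted p = 8.83e-05). HSP21.9 (LOC_Os11g13980) had 0.65, 5.77 and 3.81 FPKM in dm_45C and was listed at 0 in all dm_29C libraries. It passed (limma adjusted p = 0.0205), but not without dm_45C replicate 2 (limma adjusted p = 0.0715).

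Class I genes sit in runs of neighbouring loci. In the runs on chromosomes 1 and 3 every tested locus listed with the family rose, except LOC_Os01g04350. In the run on chromosome 1, HSP16.9A (LOC_Os01g04370) measured 153, 602 and 391 FPKM in dm_45C, against 2.66, 2.73 and 2.29 FPKM in dm_29C (log2 fold change 6.54, limma adjusted p = 1.84e-05). Its neighbour HSP16.9B (LOC_Os01g04380) rose as well (log2 fold change 5.65, limma adjusted p = 0.000115), as did LOC_Os01g04360 (log2 fold change 4.53, limma adjusted p = 3.59e-05). HSP16.6 (LOC_Os01g04340) at the other end was much lower, with 2.57, 6.85 and 2.77 FPKM in dm_45C, against 0, 0.17 and 0 FPKM in dm_29C, and the heat libraries all lay above the controls (log2 fold change 2.17, limma adjusted p = 0.000222). Between them LOC_Os01g04350, whose membership of the family is unsure, had 71, 129 and 59.4 FPKM in dm_45C, against 139, 149 and 137 FPKM in dm_29C, with every heat library below every control (log2 fold change -0.78, limma adjusted p = 0.0368), a call lost without both replicate 1 libraries (limma adjusted p = 0.173). In the run on chromosome 3, HSP17.4 (LOC_Os03g16020) had 374, 323 and 722 FPKM in dm_45C, against 10.9, 12.5 and 19.2 FPKM in dm_29C (log2 fold change 4.91, limma adjusted p = 3.23e-05). LOC_Os03g16030 and LOC_Os03g16040 rose by 3.80 and 3.17 on the log2 scale. The locus next in number, LOC_Os03g16050, encodes the plastid fructose-bisphosphatase and fell, as given with the Calvin cycle. A further member, HSP18.8 (LOC_Os07g33350), went against its family, at 9.03, 15.5 and 6.24 FPKM in dm_45C, against 36, 24 and 28.7 FPKM in dm_29C (log2 fold change -1.51 ± 0.29, limma adjusted p = 0.00186). HSP22.3 stood at 2.2, 12.8 and 3.31 FPKM in dm_45C and 10.4, 11.4 and 15.6 FPKM in dm_29C, and did not pass (limma adjusted p = 0.0562).

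Of 10 HSP70 chaperones 7 rose and none fell, where 15.3% of all tested loci rose and 16.4% fell. Their median log2 change was 1.40, and 6 rose without both replicate 1 libraries. The most abundant, cytosolic HSP70 LOC_Os11g47760, had 1796, 1374 and 1740 FPKM in dm_45C, against 276, 576 and 760.0 FPKM in dm_29C. The controls spread more widely than the heat libraries, without overlap (log2 fold change 1.71 ± 0.34, limma adjusted p = 0.00266). Another cytosolic form, LOC_Os05g38530, rose most, with 151, 196 and 195 FPKM in dm_45C, against 26.4, 44.1 and 34.9 FPKM in dm_29C (log2 fold change 2.35 ± 0.29, limma adjusted p = 0.000116). HSP70CP1 (LOC_Os05g23740), the HSP70 of the plastid, measured 198, 161 and 259.5 FPKM in dm_45C, against 89.9, 74.6 and 69.5 FPKM in dm_29C, again without overlap (log2 fold change 1.37 ± 0.20, limma adjusted p = 0.000415). Its plastid relative HSP70CP2 (LOC_Os12g14070) did not pass (log2 fold change 0.42, limma adjusted p = 0.151), nor did the cytosolic forms LOC_Os03g60620 (limma adjusted p = 0.27) and LOC_Os03g16860 (limma adjusted p = 0.28). All 3 listed mitochondrial forms rose, by 0.61, 1.48 and 2.06 on the log2 scale, and the smallest of these rises did not pass without both replicate 1 libraries (limma adjusted p = 0.0958).

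Among HSP90 chaperones and the FKBP immunophilins that work with them, 7 of 8 rose, beside 15.3% of all tested loci. Without both replicate 1 libraries 5 rose. FKBP65 (LOC_Os04g28420), a peptidyl-prolyl isomerase, reached 366, 217 and 616 FPKM in dm_45C, against 1.67, 1.87 and 2.47 FPKM in dm_29C (log2 fold change 6.94 ± 0.35, limma adjusted p = 3.14e-07). HSP82A (LOC_Os04g01740), a cytosolic HSP90, was similar, at 169, 115 and 327 FPKM in dm_45C, against 0.62, 0.5 and 0.55 FPKM in dm_29C (log2 fold change 6.90 ± 0.34, limma adjusted p = 3.14e-07). In both genes dm_45C replicate 2 was the lowest heat library and replicate 3 the highest, with all controls under 3 FPKM. The more abundant cytosolic HSP90 LOC_Os09g30412 moved far less, with 837, 477 and 737 FPKM in dm_45C, against 320.4, 262 and 330.0 FPKM in dm_29C (log2 fold change 1.14 ± 0.24, limma adjusted p = 0.00392). The closely related LOC_Os08g39140 was split among heat libraries, at 62.3, 7.58 and 12.4 FPKM in dm_45C, against 33.3, 44.5 and 43.6 FPKM in dm_29C. Replicate 1 stood above the controls and the others below them, and the difference did not pass (log2 fold change -1.09 ± 0.88, limma adjusted p = 0.373).

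Among 9 HSP100 and thermotolerance genes 5 rose and 1 fell, beside 15.3% and 16.4% of all tested loci. The counts were the same without both replicate 1 libraries. HSP101 (LOC_Os05g44340), the disaggregase needed for acquired thermotolerance, stood at 14.2, 27.3 and 26.73 FPKM in dm_45C, against 0.57, 1.71 and 1.82 FPKM in dm_29C, well separated (log2 fold change 3.32 ± 0.35, limma adjusted p = 4.33e-05). MBF1c (LOC_Os06g39240), a transcriptional co-activator of the heat response, measured 86.5, 75.8 and 138 FPKM in dm_45C, against 6.69, 16.8 and 9.64 FPKM in dm_29C (log2 fold change 3.11 ± 0.31, limma adjusted p = 2.91e-05). Replicate 2 was the lowest heat library and the highest control for MBF1c, yet the groups did not overlap. CLPB-P (LOC_Os03g31300), the plastid disaggregase, rose less, with 54, 50.1 and 64.2 FPKM in dm_45C, against 25.7, 19.2 and 19.8 FPKM in dm_29C (log2 fold change 1.34 ± 0.24, limma adjusted p = 0.00131). HSA32 (LOC_Os06g46900), which prolongs acquired thermotolerance, rose by 1.91 on the log2 scale (limma adjusted p = 0.000515). SLG1 (LOC_Os12g39840), an enzyme of transfer RNA thiolation that confers heat tolerance in rice, fell, with 3.01, 4.51 and 2.11 FPKM in dm_45C, against 13.3, 12.1 and 12.8 FPKM in dm_29C (log2 fold change -1.74 ± 0.23, limma adjusted p = 0.000202). The proteasome subunit gene TT1 (LOC_Os03g26970) and the RNA helicase gene TOGR1 (LOC_Os03g46610) stood at 0.04 and 0.17 on the log2 scale and did not pass (limma adjusted p = 0.853 and 0.558).

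Of 21 heat stress transcription factors tested, 7 rose and 3 fell, beside 15.3% and 16.4% of all tested loci, so that the share that fell was near that of all loci. Leaving out both replicate 1 libraries gave 6 that rose and 2 that fell. HsfC1b (LOC_Os01g53220) rose most, at 57.5, 41.7 and 55.3 FPKM in dm_45C, against 10.6, 5.48 and 8.49 FPKM in dm_29C (log2 fold change 2.54 ± 0.30, limma adjusted p = 9.4e-05). HsfB2c (LOC_Os09g35790), of the class that lacks an activator motif, had 54.6, 68 and 77.5 FPKM in dm_45C, against 18.4, 15.8 and 20.5 FPKM in dm_29C (log2 fold change 1.81 ± 0.22, limma adjusted p = 9.73e-05). HsfA2c (LOC_Os10g28340), an activator, reached 58.5, 31.6 and 59.5 FPKM in dm_45C, against 19.9, 17.1 and 20.2 FPKM in dm_29C (log2 fold change 1.29 ± 0.25, limma adjusted p = 0.00239). None of these groups overlapped, and dm_45C replicate 2 was the lowest heat library for HsfC1b and HsfA2c. The related activator HsfA2d (LOC_Os03g06630) fell, with 4.28, 9.95 and 4.69 FPKM in dm_45C, against 22.32, 21.6 and 19.2 FPKM in dm_29C (log2 fold change -1.67 ± 0.29, limma adjusted p = 0.00102). HsfA1 (LOC_Os03g63750), the master regulator class, also fell, at 17.5, 23.3 and 17.1 FPKM in dm_45C, against 32.5, 51.1 and 37 FPKM in dm_29C (log2 fold change -1.01, limma adjusted p = 0.00466).

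Of 14 ER genes 3 rose and 1 fell, and of 13 SR factors 2 rose and none fell, beside 15.3% and 16.4% of all tested loci. The ER share was near that of all loci, of which 31.7% were called in either direction, and the SR share below it. Without both replicate 1 libraries the ER counts were 1 and 1 and the SR counts 1 and 0. PDIL1-1 (LOC_Os11g09280), a disulfide isomerase, had 88, 82.6 and 121 FPKM in dm_45C, against 54.3, 53.8 and 44.8 FPKM in dm_29C (log2 fold change 0.90 ± 0.22, limma adjusted p = 0.00905), and its relative PDIL1-4 (LOC_Os02g01010) had 4.4, 7.09 and 5.07 FPKM in dm_45C, against 14.7, 17.2 and 14.5 FPKM in dm_29C (log2 fold change -1.35 ± 0.19, limma adjusted p = 0.000242). These enzymes moved in opposite directions, each without overlap. bZIP60 (LOC_Os07g44950) rose by 0.67 ± 0.23 on the log2 scale (limma adjusted p = 0.0439), a call kept in 8 of 21 alternatives and lost without both replicate 1 libraries (limma adjusted p = 0.132). The ER HSP70 BIP1 (LOC_Os02g02410) had 34.1, 55.2 and 52.1 FPKM in dm_45C, against 31.3, 37.1 and 31.5 FPKM in dm_29C, with overlap and no pass (limma adjusted p = 0.244). Among SR proteins, which choose splice sites, RS29 (LOC_Os04g02870) had 28.7, 34.3 and 28.2 FPKM in dm_45C, against 19.1, 18.5 and 17 FPKM in dm_29C (log2 fold change 0.70 ± 0.17, limma adjusted p = 0.00665), and RSZ LOC_Os02g54770 rose by 0.51 ± 0.16 (limma adjusted p = 0.0266), which did not pass without both replicate 1 libraries (limma adjusted p = 0.0907).

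Most tested genes of desiccation tolerance rose, and the most abundant of them did not pass. Of 8 late embryogenesis abundant, dehydrin and ASR genes 6 rose and none fell, beside 15.3% and 16.4% of all tested loci. As many did so without both replicate 1 libraries, and the list median was 2.45 on the log2 scale. The summed level of the list was 1102, 1248 and 1096 FPKM in dm_45C and 1281, 1541 and 1558 FPKM in dm_29C, lower in every heat library than in any control. LEA3 (LOC_Os05g46480), a protein that accumulates in drying tissue, stood at 19.5, 58.2 and 133 FPKM in dm_45C, against 0.24, 0.62 and 0.34 FPKM in dm_29C. The heat libraries differed widely among themselves, replicate 1 being the lowest, and all lay above the controls (log2 fold change 5.30 ± 0.61, limma adjusted p = 7.56e-05). DHN1 (LOC_Os02g44870), a dehydrin, had 61, 100.3 and 185 FPKM in dm_45C, against 17.1, 31.7 and 35.3 FPKM in dm_29C (log2 fold change 1.92 ± 0.46, limma adjusted p = 0.00703). Of the 4 RAB16 dehydrin genes in a run on chromosome 11, RAB16A, RAB16B and RAB16D rose by 2.83, 3.36 and 2.41 on the log2 scale. The fourth, RAB16C (LOC_Os11g26760), had 16.2, 27.1 and 13.1 FPKM in dm_45C, against 17.8, 33.6 and 30.5 FPKM in dm_29C and did not pass (log2 fold change -0.53, limma adjusted p = 0.34). ASR5 (LOC_Os11g06720) was the most abundant of the list, at 969, 1006 and 664 FPKM in dm_45C, against 1246, 1468 and 1484 FPKM in dm_29C, and did not pass (log2 fold change -0.69, limma adjusted p = 0.0966).

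Abscisic acid metabolism had 3 of 7 genes higher, clade A PP2C phosphatases 4 of 9, and SnRK2 kinases with their bZIP targets 6 of 15, with no member of these 3 lists passing as lower. Of all tested loci 15.3% were higher and 16.4% lower. Without both replicate 1 libraries 2, 3 and 4 members of these lists rose. ZEP (LOC_Os04g37619), zeaxanthin epoxidase, an early enzyme of the pathway, had 36.6, 30.9 and 52 FPKM in dm_45C, against 4.66, 6.95 and 3.88 FPKM in dm_29C (log2 fold change 2.73 ± 0.26, limma adjusted p = 2.37e-05). NCED1 (LOC_Os02g47510), a dioxygenase that cleaves the carotenoid precursor, had 208, 203 and 141 FPKM in dm_45C, against 75.7, 23.5 and 55.7 FPKM in dm_29C, with the highest control still under the lowest heat library (log2 fold change 1.94 ± 0.38, limma adjusted p = 0.00235). The hydroxylases ABA8OX1, ABA8OX2 and ABA8OX3, which break the hormone down, did not pass. PP2C49 (LOC_Os05g38290) rose most of the phosphatases that restrain the signal, with 29, 16.4 and 48.1 FPKM in dm_45C, against 0.47, 0.75 and 0.7 FPKM in dm_29C (log2 fold change 4.17 ± 0.39, limma adjusted p = 2.04e-05). PP2C68 (LOC_Os09g15670) had 33.7, 34.6 and 42 FPKM in dm_45C, against 4.93, 10.9 and 15.4 FPKM in dm_29C (log2 fold change 1.84 ± 0.34, limma adjusted p = 0.0016). PP2C50 (LOC_Os05g46040) rose by 0.89 ± 0.25, a call lost without both replicate 1 libraries (limma adjusted p = 0.0183 and 0.155). Of the kinases, SAPK10 (LOC_Os03g41460) stood at 39.2, 48.7 and 37.5 FPKM in dm_45C, against 5.9, 7.13 and 7.87 FPKM in dm_29C (log2 fold change 2.42 ± 0.23, limma adjusted p = 2.57e-05). SAPK8 (LOC_Os03g55600) was tight within both groups, at 138, 141 and 140.1 FPKM in dm_45C, against 58.5, 59.6 and 66.3 FPKM in dm_29C (log2 fold change 1.17 ± 0.18, limma adjusted p = 0.000526). SAPK9 (LOC_Os12g39630) rose only by 0.56 and lost its call without both replicate 1 libraries (limma adjusted p = 0.0484 and 0.0637).

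Of 4 DREB genes, activators of dehydration and cold responses, DREB1A (LOC_Os09g35030), DREB1B (LOC_Os09g35010) and DREB2B (LOC_Os05g27930) rose, beside 15.3% of all tested loci. DREB1B did not pass without both replicate 1 libraries (limma adjusted p = 0.0739). DREB2B had 27.6, 27.6 and 26.68 FPKM in dm_45C, against 14.4, 14.4 and 12.5 FPKM in dm_29C (log2 fold change 0.94 ± 0.22, limma adjusted p = 0.00652), with no overlap and little spread. DREB1A stood at 3.75, 1.57 and 7.94 FPKM in dm_45C and near 0 in dm_29C, at 0.59, 0.09 and 0.52 FPKM (log2 fold change 1.79, limma adjusted p = 0.00632). In the wild type none of the DREB genes passed, yet the difference between genotypes did not pass for any of them either. NAC5 (LOC_Os11g08210), a stress NAC factor, was the only one of 8 to rise (log2 fold change 0.70, limma adjusted p = 0.0373), a share near the 15.3% of all tested loci. It did not pass without both replicate 1 libraries (limma adjusted p = 0.0555), and in that fit 1 other member of the list rose. SNAC1 (LOC_Os03g60080) had 27.4, 59.6 and 148 FPKM in dm_45C, against 19, 23 and 31.4 FPKM in dm_29C, overlapping and short of the threshold (log2 fold change 1.35, limma adjusted p = 0.0526). Among compatible solute genes 4 of 13 rose and 2 fell, beside 15.3% and 16.4% of all tested loci. The share that fell was near that of all loci. Without both replicate 1 libraries 2 rose and none fell. P5CS1 (LOC_Os05g38150), the first enzyme of proline synthesis, had 21.1, 29.1 and 29.9 FPKM in dm_45C, against 12, 11.7 and 9.57 FPKM in dm_29C (log2 fold change 1.19, limma adjusted p = 0.00257), and GOLS2 (LOC_Os07g48830), galactinol synthase, 38.7, 23.9 and 53.8 FPKM in dm_45C, against 10.1, 14.8 and 17.3 FPKM in dm_29C (log2 fold change 1.36 ± 0.42, limma adjusted p = 0.0277). BADH2 (LOC_Os08g32870), a betaine aldehyde dehydrogenase, rose by 0.65, while the trehalose phosphatase gene TPP7 (LOC_Os09g20390) fell by 0.70 on the log2 scale (limma adjusted p = 0.00874 and 0.0228). The calls of GOLS2 and TPP7 ended without both replicate 1 libraries (limma adjusted p = 0.17 and 0.05).

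Both ferritin genes tested rose. FER1 (LOC_Os11g01530) and FER2 (LOC_Os12g01530) encode ferritin, the iron store of the plastid. FER1 had 346, 277 and 498 FPKM in dm_45C, against 26.6, 36.3 and 31.8 FPKM in dm_29C (log2 fold change 3.49 ± 0.27, limma adjusted p = 8.05e-06). FER2 measured 237, 178 and 349 FPKM in dm_45C, against 15.1, 21.7 and 16.7 FPKM in dm_29C (log2 fold change 3.72 ± 0.34, limma adjusted p = 2.03e-05). Every heat library exceeded every control by a wide margin in both, which are close copies of each other whose reads may have been split between them. Of 9 iron genes tested these were the 2 that rose, and 2 fell, beside 15.3% and 16.4% of all tested loci. Both counts were near those shares. Without both replicate 1 libraries 2 iron genes rose and none fell. VIT1 (LOC_Os04g38940), a vacuolar iron transporter, had 9.99, 13.1 and 6.81 FPKM in dm_45C, against 21.2, 23.18 and 17.3 FPKM in dm_29C (log2 fold change -1.01, limma adjusted p = 0.00952), and NAS3 (LOC_Os07g48980), a nicotianamine synthase, fell by 1.64 on the log2 scale (limma adjusted p = 0.0336). Neither fall passed without both replicate 1 libraries (limma adjusted p = 0.0608 and 0.0543). Of 9 superoxide dismutase and catalase genes 4 rose and 1 fell, beside 15.3% and 16.4% of all tested loci. Without both replicate 1 libraries 3 rose and 1 fell. SODCC2 (LOC_Os07g46990), a cytosolic copper-zinc form, had 1286, 1118 and 1868 FPKM in dm_45C, against 293, 365 and 330.0 FPKM in dm_29C (log2 fold change 2.08 ± 0.24, limma adjusted p = 8.13e-05). The other cytosolic form, SODCC1 (LOC_Os03g22810), had 138, 288 and 199 FPKM in dm_45C, against 380.2, 514 and 449 FPKM in dm_29C, in the opposite direction (log2 fold change -1.15 ± 0.24, limma adjusted p = 0.00364). Catalase genes CATA, CATB and CATC did not pass.

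Of 12 ascorbate peroxidase and alternative oxidase genes 4 rose and 1 fell, beside 15.3% and 16.4% of all tested loci. The counts were 2 and 1 without dm_45C replicate 2, and 4 and 0 without both replicate 1 libraries. AOX1b (LOC_Os04g51160), a mitochondrial oxidase that bypasses part of the respiratory chain, stood at 11.9, 51.4 and 56.8 FPKM in dm_45C, against 2.44, 3.41 and 2.8 FPKM in dm_29C (log2 fold change 3.14 ± 0.50, limma adjusted p = 0.000661). Its neighbour AOX1a (LOC_Os04g51150) had 58.1, 88.5 and 173 FPKM in dm_45C, against 23.4, 38.8 and 30.2 FPKM in dm_29C (log2 fold change 1.64 ± 0.35, limma adjusted p = 0.00352). In both genes replicate 1 was the lowest heat library, and the groups did not overlap. The cytosolic peroxidase APX2 (LOC_Os07g49400) rose by 1.02 ± 0.34, and the peroxisomal APX3 (LOC_Os04g14680), at low level, fell by 1.34 ± 0.38 (limma adjusted p = 0.0359 and 0.0171). The fall of APX3 did not pass without both replicate 1 libraries (limma adjusted p = 0.0821), nor the rise of APX2 without dm_45C replicate 2 (limma adjusted p = 0.1003). Among metallothioneins, cysteine-rich metal binders, 2 of 5 fell, beside 16.4% of all tested loci, and 1 without both replicate 1 libraries. MT3a (LOC_Os01g10400) had 1647, 2999.6 and 2003 FPKM in dm_45C, against 6031, 5896 and 6465 FPKM in dm_29C (log2 fold change -1.51 ± 0.38, limma adjusted p = 0.0093), and did not pass without both replicate 1 libraries (limma adjusted p = 0.0667). MT2 LOC_Os01g74300 had 109, 423 and 27.5 FPKM in dm_45C, against 477, 699.8 and 917 FPKM in dm_29C (log2 fold change -2.62 ± 0.70, limma adjusted p = 0.0134). The heat libraries of this MT2 locus spanned a wide range with replicate 2 the highest, all below the controls.

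**Figure D3:**
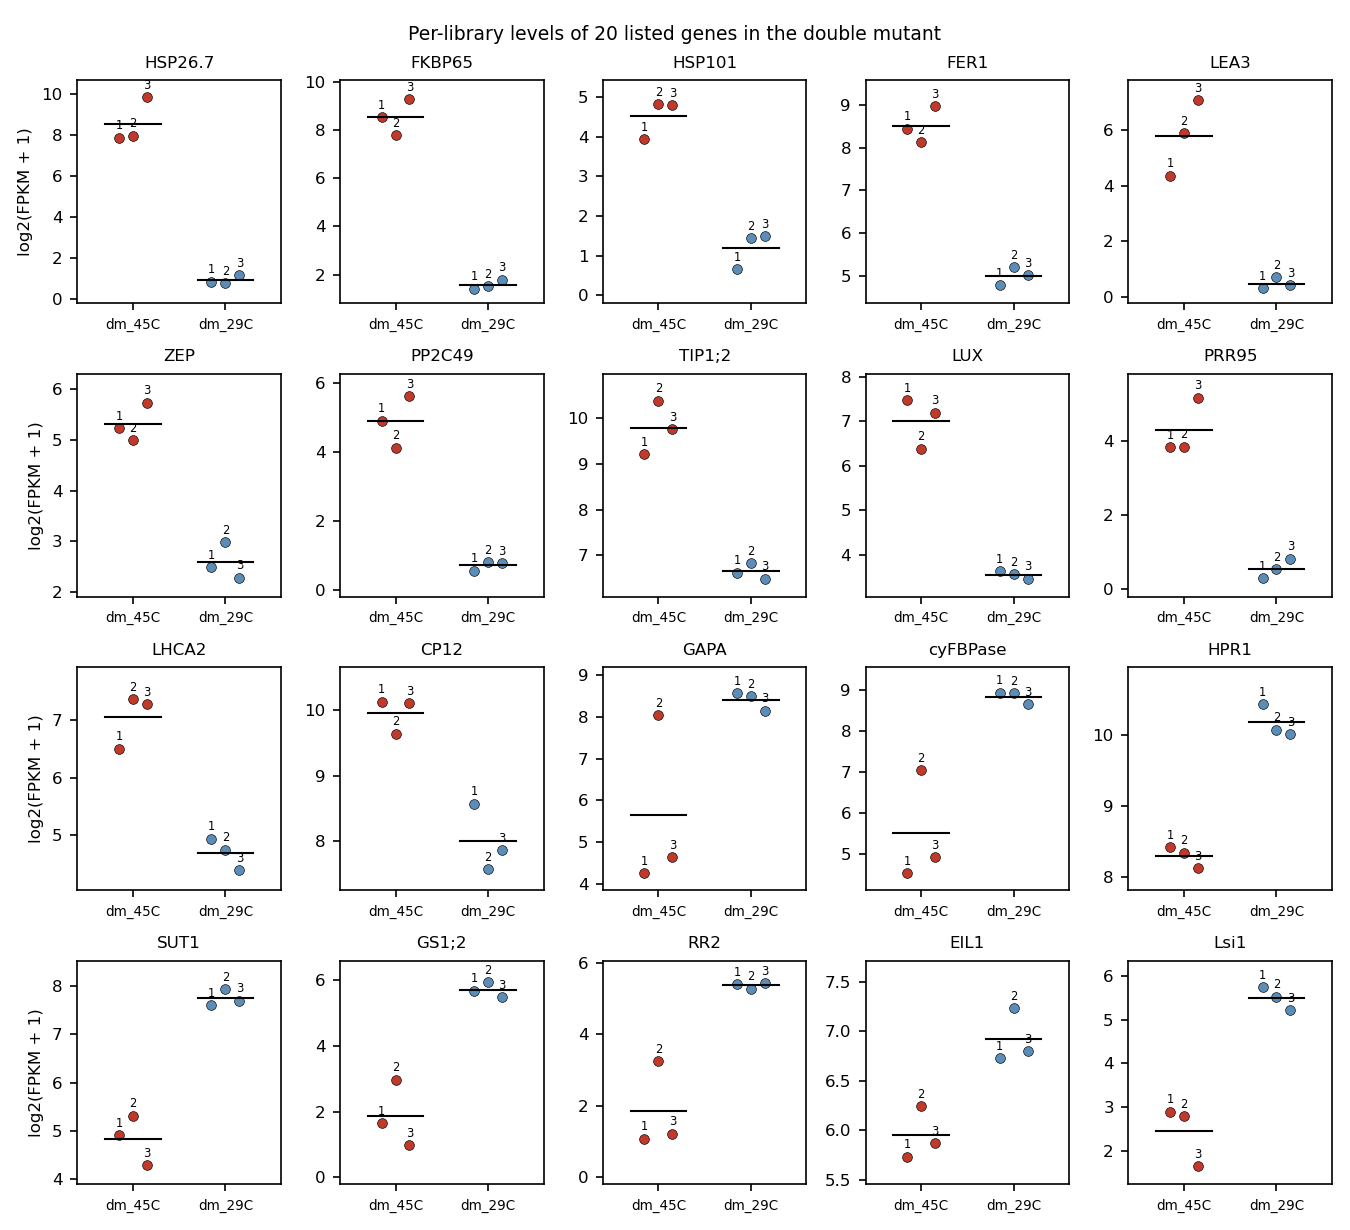
Level of each library as log2(FPKM + 1) for 20 listed genes, with dm_45C on the left and dm_29C on the right of each panel, replicate numbers over the points and a bar at the mean. Groups do not overlap in any panel, since genes per list were named among those passing without overlap. For GAPA dm_45C replicate 2 lies near the controls.

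Clock genes changed in both directions. Of 14 tested 7 rose and 2 fell, beside 15.3% and 16.4% of all tested loci, so that the share that fell was near that of all loci. Without both replicate 1 libraries 6 rose and 2 fell. PRR95 (LOC_Os09g36220), a pseudo-response regulator, had 13.2, 13.3 and 34.9 FPKM in dm_45C, against 0.23, 0.46 and 0.77 FPKM in dm_29C (log2 fold change 3.72 ± 0.40, limma adjusted p = 5.23e-05). LUX (LOC_Os01g74020), of the evening complex, had 176, 82.2 and 145 FPKM in dm_45C, against 11.5, 10.9 and 10 FPKM in dm_29C (log2 fold change 3.46 ± 0.40, limma adjusted p = 7.49e-05). FKF1 (LOC_Os11g34460), a blue light receptor of the flowering pathway, stood at 21.1, 9.04 and 20.1 FPKM in dm_45C, against 0.44, 0.26 and 0.14 FPKM in dm_29C (log2 fold change 3.71 ± 0.31, limma adjusted p = 1.27e-05). GI (LOC_Os01g08700) rose by 2.26 ± 0.47 and PRR1/TOC1 (LOC_Os02g40510) by 2.16 ± 0.30 (limma adjusted p = 0.00338 and 0.000287). For LUX, FKF1, GI and PRR1/TOC1, dm_45C replicate 2 was the lowest heat library, above all controls. The morning gene LHY/CCA1 (LOC_Os08g06110) went the other way, with 9.11, 66 and 21.8 FPKM in dm_45C, against 127, 200.0 and 128 FPKM in dm_29C. Replicate 2 was its highest heat library, still under every control (log2 fold change -2.58 ± 0.59, limma adjusted p = 0.00551). ELF4A (LOC_Os11g40610) of the evening complex fell as well (log2 fold change -1.11, limma adjusted p = 0.00624). The sources used here do not give the hour of sampling.

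Of 10 photoreceptor and PIF-like genes 1 rose and 4 fell, beside 15.3% and 16.4% of all tested loci. Without both replicate 1 libraries 1 rose and 2 fell. The cryptochrome CRY2 (LOC_Os02g41550) rose, with 26.1, 16.4 and 19 FPKM in dm_45C, against 7.43, 5.48 and 6.93 FPKM in dm_29C (log2 fold change 1.48 ± 0.22, limma adjusted p = 0.000429). PHYB (LOC_Os03g19590), the phytochrome that also reads temperature in Arabidopsis, had 16.64, 19 and 17.1 FPKM in dm_45C, against 28.4, 36.1 and 25.3 FPKM in dm_29C (log2 fold change -0.72 ± 0.18, limma adjusted p = 0.00889). PHYC (LOC_Os03g54084) fell by 0.83 ± 0.22 on the log2 scale (limma adjusted p = 0.012). The PIF-like factor PIL13 (LOC_Os03g56950) had 6.87, 11.2 and 2.7 FPKM in dm_45C, against 25.4, 17.94 and 21.5 FPKM in dm_29C (log2 fold change -1.66 ± 0.39, limma adjusted p = 0.00693). The calls of PHYB and PHYC ended without both replicate 1 libraries (limma adjusted p = 0.0597 and 0.0989).

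Of 9 chlorophyll breakdown genes 5 rose and 1 fell, beside 15.3% and 16.4% of all tested loci. Without both replicate 1 libraries 4 rose and none fell. NYC1 (LOC_Os01g12710), which reduces chlorophyll b, had 139, 108 and 181 FPKM in dm_45C, against 58.6, 44.9 and 51.1 FPKM in dm_29C (log2 fold change 1.43 ± 0.23, limma adjusted p = 0.000704). SGR (LOC_Os09g36200), the stay-green protein that removes magnesium, had 9.72, 18.4 and 24.4 FPKM in dm_45C, against 5.52, 5.36 and 5.33 FPKM in dm_29C (log2 fold change 1.44 ± 0.37, limma adjusted p = 0.0101). The oxygenase PAO (LOC_Os03g05310) and the reductase RCCR1 (LOC_Os10g25030), which act after it, rose by 0.97 and 1.23 on the log2 scale. HCAR (LOC_Os04g25400), which turns chlorophyll b back towards chlorophyll a, had 72.5, 104 and 90.1 FPKM in dm_45C, against 167, 128 and 143 FPKM in dm_29C (log2 fold change -0.72 ± 0.21, limma adjusted p = 0.0193), and without both replicate 1 libraries it did not pass (limma adjusted p = 0.196). Of 12 chlorophyll synthesis genes 2 rose and none fell, beside 15.3% and 16.4% of all tested loci. The share that rose was near that of all loci. Without both replicate 1 libraries 4 rose and none fell. DVR (LOC_Os03g22780), the divinyl reductase, had 35.9, 50 and 38.2 FPKM in dm_45C, against 14.1, 13.1 and 11.7 FPKM in dm_29C (log2 fold change 1.59 ± 0.19, limma adjusted p = 0.000105), and GSA (LOC_Os08g41990), of the early pathway, 77.3, 74.9 and 91 FPKM in dm_45C, against 47, 58.4 and 44.7 FPKM in dm_29C (log2 fold change 0.69 ± 0.15, limma adjusted p = 0.00487). Without dm_45C replicate 2, 3 synthesis genes passed as lower.

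Antenna genes split by member. Of 13 tested 5 rose and 1 fell, beside 15.3% and 16.4% of all tested loci. Without both replicate 1 libraries 4 rose and none fell. LHCA2 (LOC_Os07g38960), of photosystem I, had 89.7, 164 and 154 FPKM in dm_45C, against 29.6, 25.8 and 20 FPKM in dm_29C (log2 fold change 2.36 ± 0.27, limma adjusted p = 7.74e-05), whereas LHCA1 and LHCA3 did not pass (limma adjusted p = 0.746 and 0.435). LHCB2 (LOC_Os03g39610), of photosystem II, was low in FPKM throughout, at 12.9, 6.57 and 14.1 FPKM in dm_45C, against 0.86, 0.32 and 0.04 FPKM in dm_29C (log2 fold change 3.09 ± 0.37, limma adjusted p = 9.37e-05). CAB1R (LOC_Os09g17740) was likewise low, with 6.17, 2.38 and 6.91 FPKM in dm_45C, against 0.37, 0.51 and 0.05 FPKM in dm_29C (log2 fold change 2.15 ± 0.36, limma adjusted p = 0.000827). All 3 separated the groups. Of 18 photosystem and electron transport genes 1 rose and 4 fell, beside 15.3% and 16.4% of all tested loci. The counts were 1 and 0 without both replicate 1 libraries, and 1 and 7 without dm_45C replicate 2. The copies of PsbS, the sensor of excess light, moved in opposite directions. PsbS2 (LOC_Os04g59440) had 39.2, 134 and 79.4 FPKM in dm_45C, against 13, 9.35 and 9.28 FPKM in dm_29C (log2 fold change 2.73 ± 0.37, limma adjusted p = 0.000219). PsbS1 (LOC_Os01g64960) had 9.45, 64.5 and 27.2 FPKM in dm_45C, against 147, 144 and 81 FPKM in dm_29C (log2 fold change -2.17 ± 0.60, limma adjusted p = 0.0152), a fall that did not pass without both replicate 1 libraries (limma adjusted p = 0.137). PetE (LOC_Os06g01210), plastocyanin, had 483, 1071 and 534 FPKM in dm_45C, against 1636, 1339 and 1109.8 FPKM in dm_29C (log2 fold change -1.04 ± 0.34, limma adjusted p = 0.035), and FNR LOC_Os06g01850, a ferredoxin reductase, 221, 404 and 254 FPKM in dm_45C, against 777, 637 and 641 FPKM in dm_29C (log2 fold change -1.26 ± 0.29, limma adjusted p = 0.0056). Both lost their calls without replicate 1 (limma adjusted p = 0.262 and 0.07).

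Of 14 Calvin cycle genes 10 fell and 2 rose, beside 16.4% and 15.3% of all tested loci. The list median was -1.07 on the log2 scale. Without both replicate 1 libraries 2 fell and 2 rose, with a median of -0.73, and 4 of the calls held in every alternative run. GAPA (LOC_Os04g38600), the plastid glyceraldehyde-phosphate dehydrogenase, stood at 18.2, 263 and 23.9 FPKM in dm_45C, against 379.9, 359.9 and 282 FPKM in dm_29C. Replicates 1 and 3 were far below the controls, and replicate 2 just under the lowest of them (log2 fold change -2.76 ± 0.90, limma adjusted p = 0.0342, without both replicate 1 libraries limma adjusted p = 0.219). cpFBPase (LOC_Os03g16050), the fructose-bisphosphatase, had 79.3, 220.5 and 79.1 FPKM in dm_45C, against 509, 476 and 466 FPKM in dm_29C (log2 fold change -2.11 ± 0.34, limma adjusted p = 0.000742), and SBPase (LOC_Os04g16680), the sedoheptulose-bisphosphatase, 95.4, 335 and 141 FPKM in dm_45C, against 745, 673 and 631 FPKM in dm_29C (log2 fold change -2.04 ± 0.41, limma adjusted p = 0.00259). These 2 calls held without both replicate 1 libraries (limma adjusted p = 0.0126 and 0.0317). The Rubisco small subunit gene LOC_Os12g17600 had 323, 1148 and 493 FPKM in dm_45C, against 2601, 2335 and 2096 FPKM in dm_29C (log2 fold change -2.04 ± 0.53, limma adjusted p = 0.0115). LOC_Os12g19381, another small subunit gene, had 997, 1760.3 and 1011 FPKM in dm_45C, against 3333, 2262 and 2249 FPKM in dm_29C (log2 fold change -1.08 ± 0.39, limma adjusted p = 0.0488). Neither small subunit gene passed without both replicate 1 libraries (limma adjusted p = 0.105 and 0.286). How reads were divided between these near-identical copies is uncertain. CP12 (LOC_Os01g19740), the linker protein that inhibits the cycle by binding glyceraldehyde-phosphate dehydrogenase and phosphoribulokinase, rose, with 1123, 799.8 and 1106 FPKM in dm_45C, against 378, 188 and 231 FPKM in dm_29C (log2 fold change 1.97 ± 0.32, limma adjusted p = 0.000675). It was higher in every heat library than in any control, while phosphoribulokinase itself, PRK (LOC_Os02g47020), had 93.3, 298 and 168 FPKM in dm_45C, against 463, 341 and 394 FPKM in dm_29C (log2 fold change -1.24, limma adjusted p = 0.032) and did not pass without both replicate 1 libraries (limma adjusted p = 0.259). RCA (LOC_Os11g47970), Rubisco activase, spanned the controls, at 339, 1558 and 918 FPKM in dm_45C, against 1279, 920.4 and 1074 FPKM in dm_29C, and did not pass (limma adjusted p = 0.496).

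Photorespiration genes, which recycle the product of Rubisco's reaction with oxygen, fell at 7 of 13 loci and none rose. Of all tested loci 16.4% fell and 15.3% rose. Without both replicate 1 libraries 1 photorespiration gene fell. HPR1 (LOC_Os02g01150), hydroxypyruvate reductase, had 342, 324 and 279.6 FPKM in dm_45C, against 1387, 1080 and 1034 FPKM in dm_29C, tight within each group (log2 fold change -1.88 ± 0.25, limma adjusted p = 0.000211), and was the one whose call held without replicate 1 (limma adjusted p = 0.0035). GDCH (LOC_Os10g37180), of glycine decarboxylase, had 296, 908 and 303 FPKM in dm_45C, against 1622, 1785 and 1137 FPKM in dm_29C (log2 fold change -1.78 ± 0.43, limma adjusted p = 0.00783). GLO5 (LOC_Os07g05820), a glycolate oxidase, had 319, 563 and 359 FPKM in dm_45C, against 1259, 758 and 1126 FPKM in dm_29C (log2 fold change -1.35, limma adjusted p = 0.00514), whereas GLO1 (LOC_Os03g57220) did not pass (log2 fold change -0.54, limma adjusted p = 0.156).

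Falls in these lists were uneven among the heat libraries. Over the 3328 loci called lower, the median log2 change of a single heat library from the control mean was -1.28 in replicate 1, -0.86 in replicate 2 and -1.24 in replicate 3, and replicate 2 was nearest to the controls at 73.4% of them. Among the 3102 called higher it was nearest at 45.7%, replicate 1 at 40.2% and replicate 3 at 14.1%. At 13 of 14 Calvin genes, 9 of 13 photorespiration genes and all 7 type-A response regulators replicate 2 lay nearest. The Calvin medians were -1.60, -0.42 and -1.19 in replicates 1, 2 and 3. In the small heat shock proteins the order was different, with medians of 3.03, 3.81 and 4.26. Without dm_45C replicate 2, 10 Calvin and 7 photorespiration genes fell, and 3613 of all loci. The 10 most abundant loci took 24.2%, 13.3% and 15.7% of the FPKM sum in dm_45C replicates 1, 2 and 3 and from 13.6% to 18.9% in dm_29C. Their part in these differences was not tested.

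**Figure D4:**
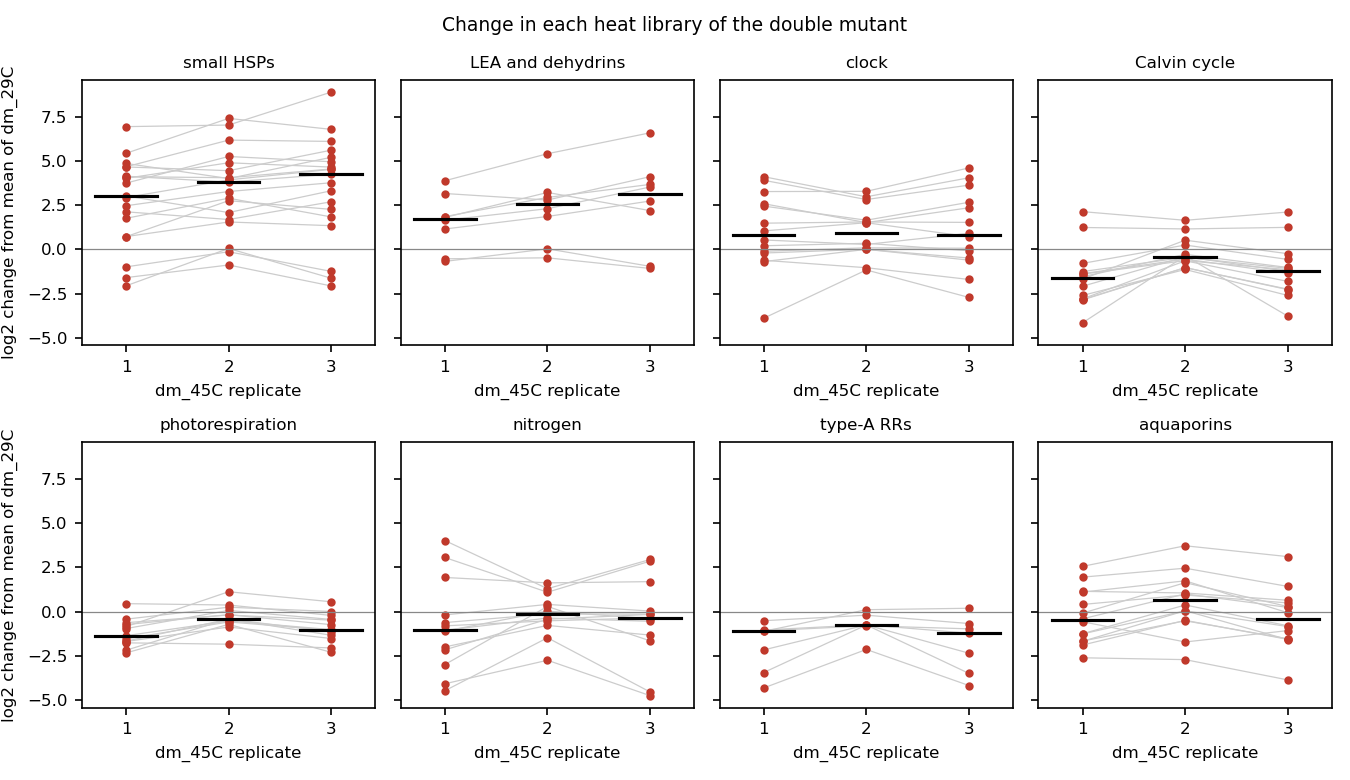
Log2 change of each tested gene from the mean of dm_29C in each heat library of the double mutant, for 8 gene lists, with grey lines joining a gene and a black bar at the median. In the Calvin cycle panel the median is -1.60 in replicate 1, -0.42 in replicate 2 and -1.19 in replicate 3.

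Of 13 nitrogen assimilation genes 3 rose and 3 fell, beside 15.3% and 16.4% of all tested loci. Neither share was far from that of all loci. Without both replicate 1 libraries 2 rose and 1 fell. GS1;2 (LOC_Os03g12290), a cytosolic glutamine synthetase, had 2.12, 6.84 and 0.96 FPKM in dm_45C, against 50.6, 60.6 and 44.2 FPKM in dm_29C, the largest fall of the list (log2 fold change -3.85 ± 0.41, limma adjusted p = 4.65e-05). Fd-GOGAT (LOC_Os07g46460), the leaf glutamate synthase, had 62.2, 146 and 99.4 FPKM in dm_45C, against 316, 202 and 243 FPKM in dm_29C (log2 fold change -1.36 ± 0.32, limma adjusted p = 0.00713), a call lost without both replicate 1 libraries (limma adjusted p = 0.0925). In the other direction, NIR1 (LOC_Os01g25484), nitrite reductase, had 71.2, 57.4 and 60.3 FPKM in dm_45C, against 18.1, 17 and 18.5 FPKM in dm_29C (log2 fold change 1.76 ± 0.17, limma adjusted p = 3.01e-05). NADH-GOGAT2 (LOC_Os05g48200) had 17.99, 1.88 and 8.03 FPKM in dm_45C and was near 0 in dm_29C, at 0.26, 0.06 and 0.19 FPKM (log2 fold change 2.76, limma adjusted p = 0.00159). The nitrate reductase gene NIA2 (LOC_Os08g36500) had 0.05, 7.36 and 0 FPKM in dm_45C and spread widely in dm_29C, at 16.8, 61.2 and 10.2 FPKM (log2 fold change -3.49, limma adjusted p = 0.0269), a call also lost without both replicate 1 libraries (limma adjusted p = 0.127).

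Of 12 sucrose and starch genes 5 fell and 1 rose, beside 16.4% and 15.3% of all tested loci. Without both replicate 1 libraries 2 fell and 1 rose. cyFBPase (LOC_Os01g64660), the cytosolic fructose-bisphosphatase of sucrose synthesis, had 22.27, 132 and 29.5 FPKM in dm_45C, against 489, 485 and 401 FPKM in dm_29C. Replicate 2 was again the heat library nearest the controls, without overlap (log2 fold change -3.33 ± 0.52, limma adjusted p = 0.000544). SUT1 (LOC_Os03g07480), a sucrose transporter of the phloem, had 29.2, 38.9 and 18.6 FPKM in dm_45C, against 192, 243 and 206 FPKM in dm_29C (log2 fold change -2.90 ± 0.30, limma adjusted p = 3.79e-05). SUS4 (LOC_Os03g22120), a sucrose synthase, rose, with 24.12, 31.4 and 36 FPKM in dm_45C, against 15.9, 12.9 and 9.39 FPKM in dm_29C (log2 fold change 1.21 ± 0.25, limma adjusted p = 0.00318). SPS1 (LOC_Os01g69030), sucrose phosphate synthase, had 10.1, 19 and 15.2 FPKM in dm_45C, against 37.2, 30.4 and 29 FPKM in dm_29C (log2 fold change -1.11, limma adjusted p = 0.0484) and did not pass without both replicate 1 libraries (limma adjusted p = 0.293).

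Aquaporins, membrane channels for water and silicon, went both ways. Of 14 tested 3 rose and 4 fell, beside 15.3% and 16.4% of all tested loci. The share that rose was not far from that of all loci. Without both replicate 1 libraries 2 rose and 3 fell. TIP1;2 (LOC_Os01g74450), of the vacuole membrane, had 593, 1329 and 869 FPKM in dm_45C, against 97.7, 113 and 89.2 FPKM in dm_29C (log2 fold change 3.14 ± 0.32, limma adjusted p = 3.41e-05). Lsi6 (LOC_Os06g12310), a silicon channel of shoot xylem parenchyma, had 157, 223 and 109 FPKM in dm_45C, against 40.4, 44.6 and 34.6 FPKM in dm_29C (log2 fold change 1.95 ± 0.27, limma adjusted p = 0.000229). Its root counterpart Lsi1 (LOC_Os02g51110) had 6.45, 5.93 and 2.13 FPKM in dm_45C, against 52.6, 45.1 and 36.3 FPKM in dm_29C (log2 fold change -3.05 ± 0.31, limma adjusted p = 3.23e-05). Each of the 3 separated the groups. PIP2;7 (LOC_Os09g36930), of the plasma membrane, had 67.2, 105 and 29.4 FPKM in dm_45C, against 43.8, 23 and 28.2 FPKM in dm_29C and did not pass (log2 fold change 0.93, limma adjusted p = 0.207). Lsi1 is also the measurable root marker, and the amount of root in each sample was not tested.

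Of 7 type-A response regulators, which cytokinin induces and which restrain its signal, 5 fell and none rose. Of all tested loci 16.4% fell and 15.3% rose. Without both replicate 1 libraries 2 of the regulators fell. RR2 (LOC_Os02g35180) had 1.1, 8.49 and 1.31 FPKM in dm_45C, against 41.3, 37.9 and 42.5 FPKM in dm_29C (log2 fold change -3.53 ± 0.43, limma adjusted p = 0.000121), and RR4 (LOC_Os01g72330) had 0.73, 10.1 and 0.67 FPKM in dm_45C, against 16.4 to 18.9 FPKM in dm_29C (log2 fold change -2.55 ± 0.60, limma adjusted p = 0.00682). In both genes heat replicates 1 and 3 were near 1 FPKM and replicate 2 several times higher, below all controls. The call of RR4 ended without both replicate 1 libraries (limma adjusted p = 0.0588). Of 10 ethylene genes 3 fell and none rose, beside 16.4% and 15.3% of all tested loci, as many as without both replicate 1 libraries. EIL1 (LOC_Os03g20790), the transcription factor at the end of the pathway, had 52.3, 74.7 and 57.5 FPKM in dm_45C, against 105, 149.6 and 111 FPKM in dm_29C (log2 fold change -0.97 ± 0.21, limma adjusted p = 0.00405), and EIN2 (LOC_Os07g06130) upstream of it fell as well (log2 fold change -1.05, limma adjusted p = 0.00194). The receptor gene ERS2 (LOC_Os05g06320) had 5.47, 3.63 and 1.38 FPKM in dm_45C, against 8.53, 9.02 and 8.66 FPKM in dm_29C (log2 fold change -1.23, limma adjusted p = 0.00871).

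Of 10 gibberellin genes 4 fell and 2 rose, beside 16.4% and 15.3% of all tested loci. Without both replicate 1 libraries 2 fell and none rose. GA20ox1 (LOC_Os03g63970), of the last steps of synthesis, had 3.59, 9.98 and 1.5 FPKM in dm_45C, against 20.6, 22.6 and 17.6 FPKM in dm_29C (log2 fold change -2.08 ± 0.46, limma adjusted p = 0.0045), and the kaurene oxidase gene KO2 (LOC_Os06g37364) had 2.99, 5.22 and 1.22 FPKM in dm_45C, against 18.4, 10.7 and 13.6 FPKM in dm_29C (log2 fold change -1.97, limma adjusted p = 0.00405). GA2ox3 (LOC_Os01g55240), which inactivates gibberellin, had 6.17, 1.04 and 13.4 FPKM in dm_45C, against 0.34, 0.85 and 0.37 FPKM in dm_29C (log2 fold change 1.98 ± 0.54, limma adjusted p = 0.0149). Replicate 2 was close to the controls for GA2ox3, and without both replicate 1 libraries it did not pass (limma adjusted p = 0.105). GID2 (LOC_Os02g36974), the F-box protein of the receptor complex, fell by 0.70 ± 0.19, while the repressor SLR1 (LOC_Os03g49990) did not pass (limma adjusted p = 0.0159 and 0.199). The fall of GID2 did not pass without both replicate 1 libraries (limma adjusted p = 0.132).

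Of 22 jasmonate genes 5 fell and 3 rose, beside 16.4% and 15.3% of all tested loci, and 1 and 2 did so without both replicate 1 libraries. The receptor COI1a (LOC_Os01g63420) had 24.5, 30.4 and 19.5 FPKM in dm_45C, against 54.7, 66 and 50.4 FPKM in dm_29C (log2 fold change -1.18 ± 0.18, limma adjusted p = 0.000532), while its relative COI2 (LOC_Os03g15880) rose (log2 fold change 0.77, limma adjusted p = 0.00408). AOC (LOC_Os03g32314), the cyclase of jasmonate synthesis, had 12.2, 25.5 and 15.97 FPKM in dm_45C, against 42.7, 41.7 and 35.8 FPKM in dm_29C (log2 fold change -1.18, limma adjusted p = 0.0108). OPR1 (LOC_Os06g11290), an oxophytodienoate reductase, had 2.21, 12.7 and 6.3 FPKM in dm_45C, against 1.11, 0.84 and 1.13 FPKM in dm_29C (log2 fold change 1.76 ± 0.52, limma adjusted p = 0.0213). Its call was lost without dm_45C replicate 2 (limma adjusted p = 0.0765). The repressor JAZ4 (LOC_Os09g23660) fell by 0.57 ± 0.17 (limma adjusted p = 0.0252), and JAZ10 (LOC_Os03g08330) had 10.1, 23.8 and 85.1 FPKM in dm_45C, against 8.31, 8.89 and 12.8 FPKM in dm_29C, with overlap and without passing (log2 fold change 1.41, limma adjusted p = 0.354). The calls of AOC and JAZ4 ended without both replicate 1 libraries (limma adjusted p = 0.106 and 0.148). Of 12 defence genes 1 rose, beside 15.3% of all tested loci, the transcription factor WRKY76 (LOC_Os09g25060). It had 14.2, 10.6 and 53.3 FPKM in dm_45C, against 0.27, 0.93 and 0.55 FPKM in dm_29C, with replicate 3 the highest (log2 fold change 3.76 ± 1.07, limma adjusted p = 0.0178), and did not pass without both replicate 1 libraries (limma adjusted p = 0.0751).

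Diterpenoid phytoalexins are antimicrobial products of rice, and most of their genes did not reach the level needed for a test. Of 3 tested among 13 listed, 2 fell, beside 16.4% of all tested loci. As many fell without both replicate 1 libraries. CPS2 (LOC_Os02g36210), the cyclase that makes the precursor, had 0.02, 3.83 and 0.51 FPKM in dm_45C, against 30.5, 31.4 and 23.9 FPKM in dm_29C (log2 fold change -3.91 ± 0.44, limma adjusted p = 6.23e-05). CYP71Z6 (LOC_Os02g36150), a cytochrome P450 of the same chromosome 2 cluster, had 6.13, 14.8 and 6.11 FPKM in dm_45C, against 35, 48.9 and 30.8 FPKM in dm_29C (log2 fold change -2.05 ± 0.35, limma adjusted p = 0.000941). In the wild type CPS2 stood at 0.14, 0.08 and 0.66 FPKM in WT_45C and 1.07, 1.05 and 1.2 FPKM in WT_29C. The difference between the heat responses of the genotypes was -3.18 on the log2 scale for CPS2 and did not pass (limma adjusted p = 0.472).

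Of 7 cell cycle genes 1 rose and 2 fell, beside 15.3% and 16.4% of all tested loci, so that these counts were near those shares. Without both replicate 1 libraries none rose and 1 fell. MCM2 (LOC_Os11g29380), a subunit of the replicative helicase, had 3.24, 3.17 and 1.32 FPKM in dm_45C, against 15.8, 15.6 and 19.4 FPKM in dm_29C (log2 fold change -2.37 ± 0.29, limma adjusted p = 0.00013), and CDKB1 (LOC_Os01g67160), a kinase of mitosis, had 3.08, 8.88 and 4.31 FPKM in dm_45C, against 10.6, 15.6 and 11.8 FPKM in dm_29C (log2 fold change -1.18 ± 0.32, limma adjusted p = 0.0155). CDKA2 (LOC_Os02g03060) rose by 0.60 ± 0.20 (limma adjusted p = 0.0393). CDKB1 and CDKA2 did not pass without both replicate 1 libraries (limma adjusted p = 0.0816 and 0.0905). Of 14 cellulose synthase and phenylalanine ammonia-lyase genes 3 rose and 1 fell, beside 15.3% and 16.4% of all tested loci. The share that rose was not far from that of all loci. Without both replicate 1 libraries 3 rose and none fell. The 3 that rose were CESA4, CESA7 and CESA9, the synthases of the secondary wall, and they were chosen after their values were seen. CESA4 (LOC_Os01g54620) had 3.06, 3.01 and 2.23 FPKM in dm_45C, against 0.38, 0.35 and 0.38 FPKM in dm_29C, CESA7 (LOC_Os10g32980) 2.2, 2.37 and 1.85 FPKM in dm_45C, against 0.17, 0.29 and 0 FPKM in dm_29C, and CESA9 (LOC_Os09g25490) 3.72, 3.12 and 2.59 FPKM in dm_45C, against 0.03, 0.02 and 0 FPKM in dm_29C. Their log2 fold changes were 1.45, 1.45 and 2.02 (limma adjusted p = 0.0011, 0.00169 and 0.000475), and no heat library exceeded 4 FPKM. The primary wall synthases CESA1, CESA3 and CESA8 did not pass. PAL5 (LOC_Os04g43760), the entry to phenylpropanoids, had 38.8, 66.8 and 56.6 FPKM in dm_45C, against 102, 89.5 and 80.3 FPKM in dm_29C (log2 fold change -0.76 ± 0.19, limma adjusted p = 0.00956), a call lost without both replicate 1 libraries (limma adjusted p = 0.116).

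Outside the lists, the steepest rises were those of LOC_Os01g68290, with 1218, 1468 and 1313 FPKM in dm_45C, against 3.02, 5.97 and 2.96 FPKM in dm_29C (log2 fold change 8.11 ± 0.29, limma adjusted p = 1.85e-08), and LOC_Os01g42190, with 167, 68.9 and 163 FPKM in dm_45C, against 0.13, 0.18 and 0.6 FPKM in dm_29C (log2 fold change 6.59 ± 0.33, limma adjusted p = 3.14e-07). The steepest falls were those of LOC_Os12g33150, with 14.8, 55.9 and 8.19 FPKM in dm_45C, against 908, 1858 and 2324 FPKM in dm_29C (log2 fold change -6.29 ± 0.70, limma adjusted p = 5.84e-05), and LOC_Os01g45470, with 117, 246 and 58.7 FPKM in dm_45C, against 5999.7, 9538 and 9078 FPKM in dm_29C (log2 fold change -6.06 ± 0.58, limma adjusted p = 2.57e-05). In all 4 the groups lay far apart.

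The wild type answered heat at many of the same loci. Of the 6430 loci called in the libraries labelled double mutant, 4284 were called in the same direction in WT_45C against WT_29C, which is 66.6% of the double mutant calls and 72.5% of the 5905 wild type calls, and 6 were called in opposite directions. Of the 2140 called only in the double mutant, 2010 had the same sign in the wild type. The correlation of the log2 fold changes was 0.859 across loci, which are not independent and come from separate libraries. Both replicate 1 libraries enter these values. Tested directly, the difference between the responses passed at 3 loci, 0.0148% of those tested. An unadjusted limma p under 0.05 was found at 1039 loci, near the number that no difference at any locus would give. None of the 3 is a listed gene. All 3 met the filter on low values only through the dm_29C libraries, where they are high, and with the filter at FPKM 5 or a pseudocount of 0.1 no locus passed. The 3 are therefore given as a description. At all 3 the difference was negative. LOC_Os04g03050 had 0.09, 0.76 and 0.1 FPKM in dm_45C, against 10.5, 15.4 and 10 FPKM in dm_29C, and 0.62, 1.08 and 0.37 FPKM in WT_45C and 0.87, 1.4 and 0.31 FPKM in WT_29C. LOC_Os10g20890 had 1.19, 1.13 and 0.96 FPKM in dm_45C, against 11.2, 9 and 4.99 FPKM in dm_29C, and 0.41, 0.66 and 0.94 FPKM in WT_45C and 0.11, 0.09 and 0 FPKM in WT_29C. LOC_Os02g36830 had 0, 0 and 0.06 FPKM in dm_45C, against 3.77, 3.33 and 3.57 FPKM in dm_29C, and was listed at 0 in all 6 wild type libraries. All dm_29C libraries stood above every other library at these loci. The count was 0 without both replicate 1 libraries, and among single libraries left out it stayed above 0 only without dm_45C replicate 2 (4 loci), dm_45C replicate 3 (3 loci) or dm_29C replicate 3 (2 loci).

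**Figure D5:**
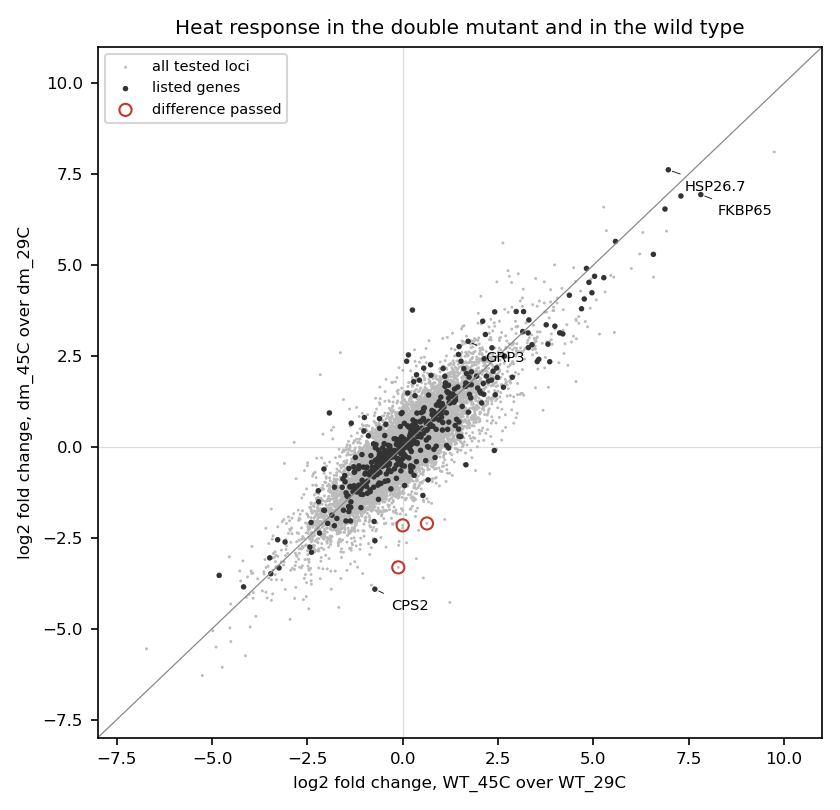
Log2 fold change in dm_45C over dm_29C against that in WT_45C over WT_29C for the 20305 tested loci, with listed genes in black, the line of equal change in grey and red rings around the 3 loci whose difference passed. Points follow the line with a correlation of 0.859, and the ringed loci lie below it.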

How the data were processed

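Poly(A) RNA of 12 whole-plant rice libraries, 3 in each of 4 groups, was sequenced as pairs of 150 bp with unique molecular identifiers and a strand mark, per the labels' protocols. The authors deposited 1 table of FPKM per locus and library, per the file headers. Per the submitters' processing notes the tools included StringTie 1.3.4d, HISAT2 2.0.4 and cutadapt 1.9, besides DESeq2, edgeR and UMI-tools, with no roles stated. The genome build was not given in the sources used here, and no sequences or coordinates are printed. How the counting divided reads between near-identical copies is likewise not given. Whole reads could not be recovered from the low FPKM values, so depth is unknown and no counting interval is given.

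Wild type columns match the genotype label, and the remaining column code was taken for the only other genotype, the double mutant. From the deposited FPKM, log2(FPKM + 1) was computed here, so fold changes of low loci are understated. A locus was tested when at least 3 of the 12 libraries reached 1 FPKM (20305 loci). The model (limma 3.58.1 in R 4.3.3) held all 12 libraries, a mean for each of 4 groups and a trend of variance on intensity, with Benjamini-Hochberg adjustment over all tested loci. Errors are standard errors of that fit. The fit was tested on simulated data. An exact permutation test of 3 libraries against 3 cannot go below 0.1 and was not used. Summaries used Python 3.11.15, pandas 2.3.3, numpy 2.4.6 and matplotlib 3.10.9.

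Gene names were entered by hand for 505 loci, of which 4 were not in the table used here. Of these names 290 are in the RefSeq gene table, 283 on the same chromosome as the locus and 7 on another. The members and lists were chosen with earlier results of these data known, and 1 further gene is not reported here. Per list, genes were named among those passing without overlap at a mean of 5 FPKM or more in the higher group. They were the 2 with the highest mean, the largest rise and the largest fall, and a list without any gave its most abundant member. GRP3, GRP162, and 2 risers and 2 fallers outside the lists at a mean of 10 FPKM or more were added. Other genes given in the text were chosen after their values were seen. Alternatives were another pseudocount (0.1), filter (FPKM 5 or none) or scaling, fewer groups, a replicate block, no trend, and leaving out libraries.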

Additional observations from a re-analysis of the deposited data

Results flagged for a closer look

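A test of the difference itself, in limma over all tested loci, passed at 3 loci, where the heat response of the libraries labelled double mutant was below that of the wild type. The difference on the log2 scale was -3.20 for LOC_Os04g03050 (limma adjusted p = 0.0446), -2.74 for LOC_Os10g20890 (limma adjusted p = 0.0446) and -2.16 for LOC_Os02g36830 (limma adjusted p = 0.0446). All 3 were lower in each of 3 dm_45C libraries than in each of 3 dm_29C libraries, with log2 fold changes of -3.31, -2.11 and -2.16. The matching values of the wild type were -0.12 and 0.64, and LOC_Os02g36830 was listed at 0 there. All 3 met the filter on low values only through the dm_29C libraries, where they are high. Filter and test thus share the same values, and the p-values cannot count as support for a difference between genotypes. The 3 loci are given as a description, and with the filter at FPKM 5 no locus passed.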

How the results depend on the processing

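The double mutant heat response gave 3102 loci higher and 3328 lower. Without both dm replicate 1 libraries the lower count was 1700, beyond 1.5 times from the main value, and the higher count 2137. Leaving out 1 library at a time gave 2091 to 3218 higher and 2324 to 3613 lower, and for the wild type 1791 to 2765 higher and 2255 to 3353 lower, against 2701 and 3204 in full. The lowest wild type count was without WT_45C replicate 1. Quantile and median-of-ratios scaling gave 3643 and 3710 higher and 3840 and 3613 lower. The count of 3 loci passing the test of a difference between genotypes was not stable. It fell to 0 with a pseudocount of 0.1, with the filter at FPKM 5, with the replicate block and without both dm replicate 1 libraries. It ranged from 0 to 4 over single libraries left out. The replicate block gave 2680 higher and 2901 lower in the double mutant and 2375 and 2708 in the wild type. Deviations of same-numbered libraries correlated at 0.14, 0.05 and 0.13 in the double mutant and at -0.03, -0.03 and -0.12 in the wild type. In the double mutant, heat replicates 1 and 3 correlated best with the control of their own number. Replicate 2 correlated slightly better with control 1, at 0.06. At GRP162 replicate 1 was the highest library of both double mutant groups. Whether the numbers pair the double mutant libraries is not settled by these values. The wild type correlations showed no such pattern. The main fit held no pairing. Values under alternatives were summarised for 152 loci, of which 150 were called. Most loci given in the text as not passing are therefore outside this summary. In it, 2956 of 3181 values kept the direction and the side of the threshold. The call was lost by 222 values and gained by 3, none turned, and 105 of the 150 called loci lost no call. The difference was not refitted with only the groups compared. The cause of these shifts was not tested, except that leaving out libraries also leaves fewer values in the fit. Depth is unknown, which limits what can be said of loci near 0 FPKM.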
